A study of Homo sapiens with 9 samples.

Results

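The 9 mucin genes MUC1, MUC4, MUC5AC, MUC5B, MUC13, MUC15, MUC16, MUC20 and MUC21 were followed across 3 states of the established lung cancer line NCI-H358. They were chosen by gene name and matched to the deposited tables by Ensembl identifier, and all 9 were found among 60230 genes. All 9 also passed a filter on low counts that left 17307 genes for testing, although MUC21 passed it only through the 3 on-drug libraries and MUC15 only through the 6 parental and on-drug libraries. Mucins are large glycoproteins whose serine- and threonine-rich stretches, often encoded by tandem repeats, carry dense O-linked sugars. The membrane mucins span the cell surface and form part of its glycocalyx, and the secreted gel-forming mucins polymerise into the mucus that lines the airway. In lung adenocarcinoma several of them serve as surface or serum antigens.

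The series compared sotorasib-sensitive and sotorasib-resistant cells by sequencing of poly(A) RNA. Parental cells had no treatment and were sensitive to sotorasib, a targeted anticancer agent. NCI-H358-R, the resistant derivative, arose from parental cells kept for about 2 months under 250 nM sotorasib. It was sequenced either with no sotorasib (off drug) or 4 days after a 250 nM dose (on drug). All 3 states came from this single line and were grown in medium with 10% serum. The 3 libraries of each state are called biological replicates in the series text. Whether they were separate cultures is not stated in the labels, so a p-value here measures only how these libraries spread. Only 1 resistant derivative was profiled, so resistance and other differences between that derivative and the parental line cannot be told apart. No source used here gives the time off drug, so withdrawal and dosing cannot be told apart in the comparison of on-drug with off-drug cells. In bulk RNA a lower level can mean fewer expressing cells or less RNA per cell, and these cannot be told apart either.

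Total estimated counts were 25.7 to 34.73 (times 1e6) per library. The 3 on-drug libraries had TMM scaling factors of 1.113 to 1.124, against 0.917 to 0.972 in the other 6, and counts in 24189 to 24360 genes, against 22079 to 22957. A floor of 3 counts in a library corresponded to 0.0776 to 0.123 CPM (counts scaled to a common library size with TMM factors), and floors and intervals here cover counting error only, since PCR copies were not marked by molecular identifiers. Epithelial markers were present in every state: the 7 listed, EPCAM, KRT7, KRT8, KRT18, KRT19, CDH1 and NKX2-1, summed to 6730 to 8130 CPM in parental cells, to 6880 to 7080 CPM off drug and to 4130 to 4910 CPM on drug. Parental replicate 3 held fewer counts from long genes: the 612 tested genes with a transcript of at least 10000 bases had a median deviation of −0.22 (log2) from the parental mean there, against 0.12 in both other parental libraries. It was the lowest parental library for MUC4, MUC5AC, MUC5B, MUC16 and MUC20. On-drug replicate 2 was the lowest on-drug library for all 9 mucin genes, with a median deviation of −0.34 from the on-drug mean, while its long genes deviated by −0.05 and its genes of at least 60% GC by −0.09. The part of these shifts in the results was not tested.

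Repeated sequence limits how reads can be assigned to these genes, so the repeat units are shown before the values. For each gene the transcript with the longest coding sequence in GENCODE release 29 (GRCh38) was searched. The best tandem period was 60 bases in MUC1, repeated over 43.6 copies at 93.6% mean identity and filling 69.2% of the coding sequence. It was 48 bases in MUC4 (205 copies, 86.1% identity, 60.6% of the coding sequence), 57 bases in MUC20 (11.9 copies, 99.4%, 31.4%) and 45 bases in MUC21 (27.4 copies, 89.4%, 72.5%). Neighbouring copies of each are given 5′ to 3′ along the gene's strand. Capitals in the second copy mark bases that differ from the first.
MUC1 copy 1, minus strand, chr1:155189989-155190048: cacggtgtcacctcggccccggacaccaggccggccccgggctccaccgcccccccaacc
MUC1 copy 2, minus strand, chr1:155189929-155189988: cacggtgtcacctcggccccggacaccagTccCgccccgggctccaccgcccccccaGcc
MUC4 copy 1, minus strand, chr3:195783719-195783766: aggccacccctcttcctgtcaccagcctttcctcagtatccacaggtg
MUC4 copy 2, minus strand, chr3:195783671-195783718: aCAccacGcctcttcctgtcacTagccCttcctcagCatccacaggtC
MUC20 copy 1, plus strand, chr3:195725406-195725462: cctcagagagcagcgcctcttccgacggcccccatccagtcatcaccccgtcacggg
MUC20 copy 2, plus strand, chr3:195725463-195725519: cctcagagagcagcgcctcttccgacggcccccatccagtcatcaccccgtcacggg
MUC21 copy 1, plus strand, chr6:30986852-30986896: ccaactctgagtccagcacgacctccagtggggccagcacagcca
MUC21 copy 2, plus strand, chr6:30986897-30986941: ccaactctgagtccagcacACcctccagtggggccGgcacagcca
The MUC20 copies were identical, those of MUC1 and MUC21 differed at 3 positions and those of MUC4 at 7. In MUC5AC the best period was 24 bases (73.9% identity over 15.1% of the coding sequence), in MUC5B 87 bases over 2.22% and in MUC16 468 bases over 7.77%.

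A read of 150 bases that lies wholly in repeats can match more than 1 place. Of all 150-base windows, 24.3% in MUC1, 10.5% in MUC4, 15.9% in MUC20, 12.4% in MUC5B and 5.16% in MUC5AC occurred more than once in the same transcript. Such windows alone do not place a read in another gene. In MUC13, MUC15 and MUC21 no 150-base window was repeated, and in MUC16 0.087% were. Windows shared with a transcript of another gene were a different matter for MUC20, where 45.5% also occurred in its pseudogene MUC20P1 or in the overlapping non-coding gene MUC20-OT1. In MUC5B 1.33% were shared with its antisense gene MUC5B-AS1. The other 7 genes shared no 150-base window with another gene. Windows of 31 bases, a shorter match, were shared more often: 76.7% in MUC20, 4.09% in MUC15, 3.12% in MUC5B (in part with MUC5AC), 1.44% in MUC21 and under 1% in the others. Within the same transcript, 48.2% of 31-base windows in MUC1, 41.9% in MUC4, 36.4% in MUC5B and 30.9% in MUC5AC were repeated. This share was 24.2% in MUC20, 13.7% in MUC21, 3.61% in MUC16, 1.26% in MUC13 and 0 in MUC15.

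**Figure D1:**
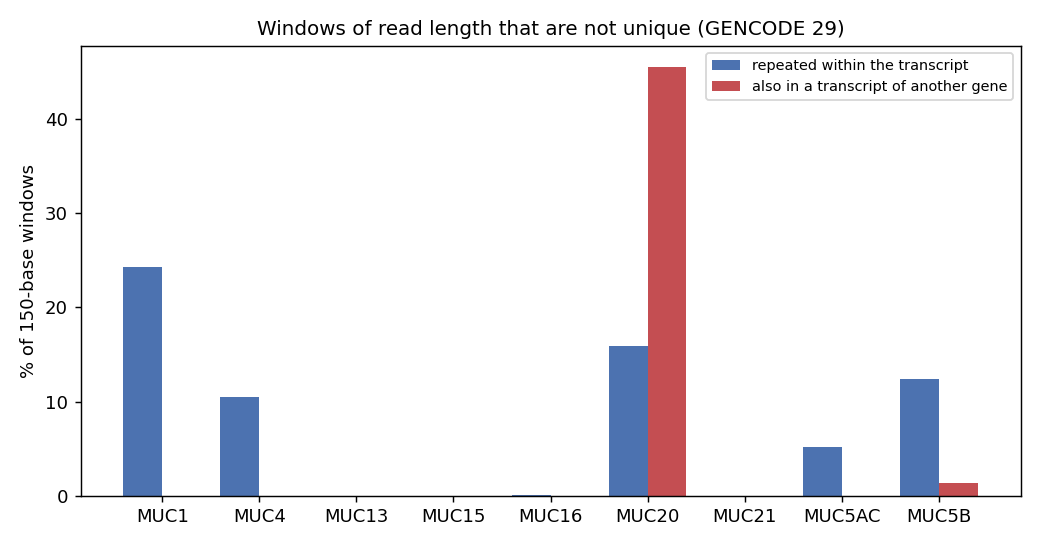
Percent of 150-base windows (vertical axis) of each mucin transcript that occur more than once within it (blue) or also in a transcript of another gene (red). MUC1 has the highest share repeated within itself (24.3%) and MUC20 the highest share found in other genes (45.5%).

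Off-drug resistant cells carried less MUC15, MUC5B, MUC20 and MUC1 RNA than parental cells and more MUC4 RNA. On drug, the same derivative carried more MUC15, MUC21, MUC1, MUC20 and MUC16 RNA than off drug, and less MUC5AC and MUC5B. Between on-drug and parental cells MUC21, MUC15, MUC1, MUC4 and MUC16 were higher and MUC5B and MUC5AC lower. MUC13 was not called in any of the 3 comparisons. Calls rest on an adjusted p under 0.05 (Benjamini-Hochberg, over all 17307 genes) in edgeR's quasi-likelihood test, and changes are log2 fold changes ± SE from that test.

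Off drug, 1 of 9 mucin genes was higher and 4 lower than in parental cells, where 28.4% of all tested genes were higher and 26.6% lower. The median change of the 9 was −0.20 and that of all genes 7e-04. On drug against off drug, 5 were higher and 2 lower, beside 31.4% and 31.2% of all genes, with a median of 1.21 against 0.02. On drug against parental, 5 were higher and 2 lower, beside 33.4% and 32.9% of all genes, with a median of 1.07 against 0.02. The on-drug counts include MUC21, which passed the low-count filter only through the on-drug libraries, where it is high. All 3 comparisons count MUC15, which passed it only through the parental and on-drug libraries. Neither gene is independent support for these counts and medians. The 3 comparisons share their libraries in pairs and are not independent of each other.

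**Figure D2:**
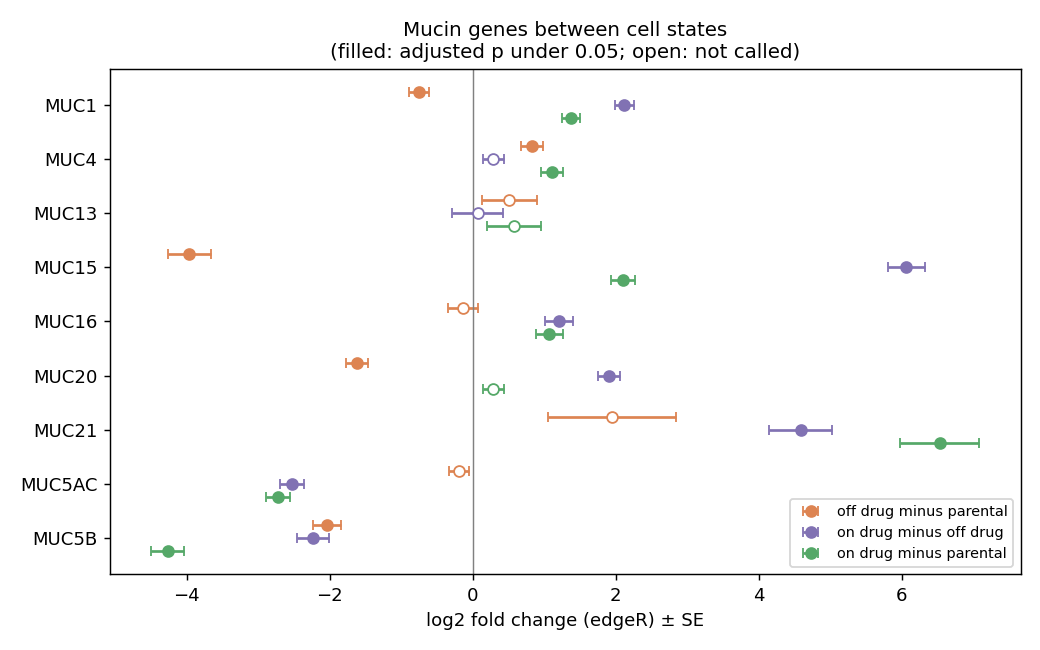
Log2 fold change ± SE (horizontal axis) of each mucin gene in the 3 comparisons, with filled points for an adjusted p under 0.05. MUC15 spans the widest range, from −3.96 off drug against parental to 6.06 on drug against off drug, and the 2 gel-forming genes at the bottom lie left of 0 in all 3 comparisons.

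MUC1 (ENSG00000185499.16, chromosome 1, 155185824 to 155192916, minus strand) encodes a membrane mucin with a signalling cytoplasmic tail. Its level was 20.2, 24.3 and 20.4 CPM in the parental libraries, 13.5, 12.9 and 12.2 off drug, and 60.2, 42.6 and 64.9 on drug. The off-drug libraries were the lowest and the on-drug libraries the highest, with no overlap between any of the states. The change off drug was −0.75 ± 0.14 (adjusted p = 0.000295), a level 1.68-fold lower. On drug it was 4.35-fold higher than off drug (2.12 ± 0.14, adjusted p = 1.88e-09) and 2.59-fold higher than parental (1.37 ± 0.13, adjusted p = 1.63e-07). The fall off drug was not called on the authors' TPM values, which are scaled by transcript length (−0.24 on log2(TPM + 1), limma adjusted p = 0.375), nor with a length offset added after the data were seen (−0.37, adjusted p = 0.157).

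The length behind that difference can be read from the 2 deposited tables. The ratio of a gene's count to its TPM gives, up to a common scale, the length used in the authors' quantification. It need not be a mean over annotated isoforms. For MUC5B the ratio gave 21510 to 23221 bases in parental replicate 1, off-drug replicates 1 and 2 and on-drug replicates 2 and 3. The longest MUC5B transcript in GENCODE release 29 has 17911 bases. For MUC1 this implied length was 2112, 1979 and 1631 bases in the parental libraries, 1492, 1105 and 1867 off drug and 1605, 1640 and 1642 on drug. Off-drug libraries thus had MUC1 TPM of 10.5, 13.9 and 7.12, which overlap the parental values of 10.4, 13.6 and 12.7. The on-drug libraries stood clear on this scale too, at 52.3, 33.0 and 52.0 TPM. The scale was set with 199 genes that have a single annotated transcript of at least 3000 bases, whose implied lengths had a median absolute deviation of 10.1 to 16.3% from the annotated ones. MUC1 has 29 annotated transcripts, and whether the assigned isoforms are those present in the cells was not tested.

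**Figure D3:**
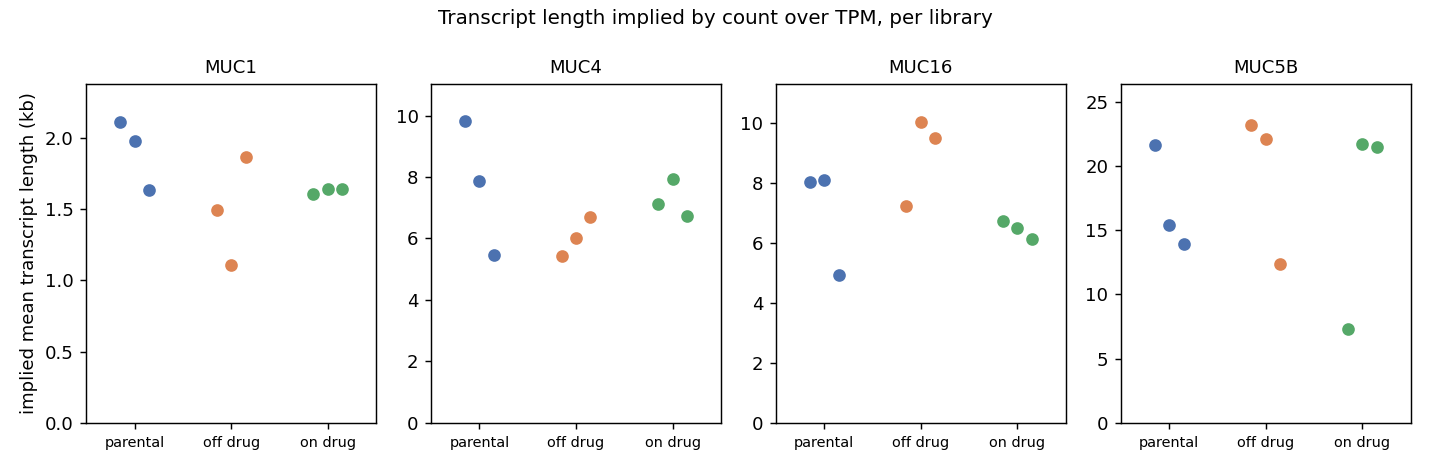
Length implied by count over TPM (vertical axis, kb) in each library for MUC1, MUC4, MUC16 and MUC5B, by cell state. MUC5B values above 17911 bases, its longest annotated transcript, are not means over annotated isoforms. On-drug replicate 1 gave 7344 bases for MUC5B, against 21734 and 21510 bases in the other on-drug libraries.

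MUC4 (ENSG00000145113.22, chromosome 3, 195746765 to 195812277, minus strand) encodes a membrane mucin that binds the receptor ERBB2. It was measured at 13.3, 10.8 and 7.89 CPM in parental, 18.9, 20.6 and 17.4 off drug and 26.3, 19.4 and 23.5 on drug. Both resistant states lay above every parental library, and they overlapped each other. MUC4 was the single member called higher off drug than in parental cells in the main fit, 1.77-fold (0.83 ± 0.16, adjusted p = 0.000332). It was 2.16-fold higher on drug than in parental cells (1.11 ± 0.15, adjusted p = 1.01e-05). Between on-drug and off-drug cells the change was 0.28 ± 0.15 (adjusted p = 0.107). That last difference depended on the settings. It was called with library size alone (0.54, adjusted p = 0.00672) under upper-quartile scaling (0.42, adjusted p = 0.0211) and with no filter (0.34, adjusted p = 0.00687). It was also called in a fit of these 2 states alone (0.27, adjusted p = 0.0418) and without parental replicate 3 (0.28, adjusted p = 0.0404) or on-drug replicate 2 (0.40, adjusted p = 0.0384). It was smaller on log2(TPM + 1) (0.18, limma adjusted p = 0.389) and on log2(TPM + 0.1) (0.21, limma adjusted p = 0.418), and nearly absent with the length offset (0.0215, adjusted p = 0.922).

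MUC16 (ENSG00000181143.15, chromosome 19, 8848844 to 8981342, minus strand) encodes the very large membrane mucin that carries the CA125 antigen. Its level was 11.7, 12.7 and 7.04 CPM in parental libraries, 8.69, 10.9 and 9.02 off drug and 27.9, 17.0 and 21.1 on drug. The on-drug libraries were the highest, while the other states overlapped. MUC16 rose 2.31-fold on drug against off drug (1.21 ± 0.19, adjusted p = 5.5e-05) and 2.10-fold against parental (1.07 ± 0.19, adjusted p = 0.00014). Off drug against parental it changed by −0.14 ± 0.20 (adjusted p = 0.593). That value was 0.0201 without parental replicate 2, and −0.49 with the length offset (adjusted p = 0.0283), where implied lengths ran from 4939 bases in parental replicate 3 to 10028 bases in off-drug replicate 2.

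MSLN, the gene of the MUC16-binding surface protein mesothelin, was measured at 1.99 ± 1.12 CPM in parental, 2.61 ± 0.738 off drug and 7.50 ± 0.172 on drug (SD, n = 3). It rose on drug against off drug by 1.53 ± 0.26 (adjusted p = 0.000114).

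MUC15 (ENSG00000169550.14, chromosome 11, 26559033 to 26572233, minus strand) encodes a membrane mucin first described in milk fat globules. Its level was 3.04, 2.56 and 2.64 CPM in parental libraries, 0.0397, 0.205 and 0.257 off drug and 12.7, 10.8 and 11.9 on drug. The 3 states did not overlap, and off drug it came to 14 counts over 3 libraries, against 228 in parental and 1349 on drug. The fall off drug was −3.96 ± 0.30 (adjusted p = 2.73e-08), with a ratio of scaled counts of 0.0626 (95% interval from counting error 0.0337 to 0.107). The rise on drug from that level was 6.06 ± 0.26 (adjusted p = 1.48e-11), a ratio of 68.3 with a counting interval of 40.5 to 125. On-drug cells also exceeded parental cells, 4.28-fold (2.10 ± 0.17, adjusted p = 2.43e-08).

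MUC21 (ENSG00000204544.5, chromosome 6, 30983718 to 30989903, plus strand) encodes epiglycanin, a membrane mucin of stratified epithelia. It had 0, 4 and 0 counts in the parental libraries, 9, 4 and 3 off drug, and 230, 143 and 184 on drug, the last equal to 6.02, 3.85 and 4.76 CPM. Parental and off-drug libraries sat at or near the floor and overlapped, and every on-drug library was far above them. The rise on drug against off drug was 4.58 ± 0.44 (adjusted p = 2.08e-07), a count ratio of 24.7 with an interval of 15.1 to 43.4. Against parental it was 6.53 ± 0.55 (adjusted p = 3.69e-08), but with only 4 parental counts the count ratio of 101 had an interval of 39.1 to 371. All 4 were in parental replicate 2, without which no fold is given, and with each other library left out the change was 5.90 to 6.66. Off drug against parental, 16 counts against 4 gave a ratio of 4.08 (interval 1.32 to 16.8) and a change of 1.95 ± 0.90 (adjusted p = 0.0782). That comparison was called without the low-count filter (1.94, adjusted p = 0.0186), by DESeq2 (2.03, adjusted p = 0.0341) and when off-drug replicate 3 was left out (2.33, adjusted p = 0.0427). It was also called without parental replicate 2 (adjusted p = 0.00483), where all parental counts are 0 and no fold is given.

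MUC20 (ENSG00000176945.17, chromosome 3, 195720882 to 195741123, plus strand) encodes a membrane mucin reported to bind the receptor MET. Its level was 32.0, 32.9 and 31.1 CPM in parental libraries, 10.6, 11.1 and 9.60 off drug and 48.9, 28.3 and 39.9 on drug. Off-drug libraries were the lowest with no overlap, and on-drug replicate 2 fell below all 3 parental libraries. MUC20 fell 3.07-fold off drug (−1.62 ± 0.15, adjusted p = 3.15e-07) and was 3.75-fold higher on drug than off drug (1.91 ± 0.15, adjusted p = 2.47e-08). On drug against parental the change was 0.29 ± 0.14 (adjusted p = 0.0842). Without on-drug replicate 1 it was 0.0821 (adjusted p = 0.591) and without on-drug replicate 2 it was 0.47 (adjusted p = 0.00111). It was also called with library size alone (0.51, adjusted p = 0.00597), upper-quartile factors (0.33, adjusted p = 0.0461), no filter (0.34, adjusted p = 0.00306) and on log2(TPM + 1) (0.49, limma adjusted p = 0.0287), and was 0.21 with the length offset (adjusted p = 0.265).

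Since MUC20 shares windows with other genes, these were read beside it. The pseudogene MUC20P1, 100648 bases away, changed in the same directions off drug (−0.94 ± 0.27, adjusted p = 0.00816) and on drug against off drug (1.24 ± 0.26, adjusted p = 0.000685). Its level was 1.09 to 1.54 TPM in parental libraries, against 14.1 to 16.1 TPM for MUC20. MUC20-OT1, which overlaps MUC20 on the same strand, was measured at 8.22 to 11.9 TPM in parental and 11.9 to 13.9 TPM off drug. On drug it was at 17.1 to 24.9 TPM, against 15.2 to 28.8 TPM for MUC20. Its change was 0.09 off drug (adjusted p = 0.591) and 0.31 ± 0.12 on drug against off drug (adjusted p = 0.041). On drug against parental it was called higher (0.40 ± 0.12, adjusted p = 0.011), with overlapping CPM, where MUC20 was not called. With the counts of MUC20 and MUC20P1 summed, the changes were −1.56 off drug (adjusted p = 4.01e-07), 1.85 on drug against off drug (adjusted p = 2.97e-08) and 0.29 on drug against parental (adjusted p = 0.0801). The split of shared reads with MUC20-OT1 was not tested, so the MUC20 values are uncertain to that extent.

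MUC13 (ENSG00000173702.7, chromosome 3, 124905442 to 124953819, minus strand) encodes a small membrane mucin with EGF-like domains, best known from the gut. Its level was 0.458, 0.801 and 0.707 CPM in parental, 1.39, 0.737 and 0.674 off drug and 1.15, 0.700 and 1.06 on drug, and the 3 states overlapped. The changes were 0.51 ± 0.39 off drug against parental (adjusted p = 0.28), 0.07 ± 0.36 on drug against off drug (adjusted p = 0.882) and 0.58 ± 0.37 on drug against parental (adjusted p = 0.187). With 53, 74 and 111 counts per state, the ratio of on-drug to off-drug counts was 1.06 with a counting interval of 0.785 to 1.45. Against parental it was 1.51 with a counting interval of 1.08 to 2.14, which leaves out the spread between libraries that the fitted test includes.

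MUC5AC (ENSG00000215182.8, chromosome 11, 1157953 to 1201138, plus strand) encodes the gel-forming mucin of airway goblet cells and gastric surface cells. Its level was 7.49, 8.86 and 6.52 CPM in parental libraries, 6.71, 6.59 and 6.61 off drug and 1.12, 1.08 and 1.24 on drug. Parental and off-drug libraries overlapped (−0.20 ± 0.14, adjusted p = 0.252) and every on-drug library lay below both. On drug it was 5.76-fold lower than off drug (−2.53 ± 0.16, adjusted p = 2e-09) and 6.61-fold lower than parental (−2.72 ± 0.16, adjusted p = 6.28e-10). MUC5AC has a single annotated transcript, and its implied length stayed between 21224 and 23247 bases, above the annotated 17448 bases in every library.

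MUC5B (ENSG00000117983.17, chromosome 11, 1223066 to 1262172, plus strand) lies 21927 bases beyond MUC5AC and encodes the gel-forming mucin of airway glands and surface secretory cells. Its level was 121, 113 and 62.7 CPM in parental libraries, 23.0, 27.6 and 21.7 off drug and 6.30, 3.88 and 5.17 on drug. The 3 states formed descending steps with no overlap. MUC5B was 4.11-fold lower off drug than in parental cells (−2.04 ± 0.20, adjusted p = 3.96e-07), and on drug a further 4.69-fold lower than off drug (−2.23 ± 0.22, adjusted p = 3.11e-07). On drug against parental it was 19.3-fold lower (−4.27 ± 0.23, adjusted p = 1.43e-10). Its TPM gave a smaller step on drug, −1.50 on log2(TPM + 0.1) (limma adjusted p = 0.0111) and −0.71 on log2(TPM + 1). On-drug replicate 1 was listed there at 1.20 TPM beside 0.227 and 0.316 TPM in the other 2, on the implied length of 7344 bases.

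The nearest tested genes on either side of the MUC5AC and MUC5B pair did not show changes of that size. TOLLIP, 12199 bases past MUC5B, changed by 0.18 ± 0.09 on drug against off drug (adjusted p = 0.0941). AP2A2, 145708 bases away on the other side of MUC5AC, changed by −0.26 ± 0.10 (adjusted p = 0.0358). MUC2, 47441 bases from MUC5AC, and MUC6 lie between AP2A2 and MUC5AC and did not pass the low-count filter. MUC20 and MUC4 lie 5641 bases apart, on opposite strands, and moved in opposite directions off drug (−1.62 and 0.83). Beside MUC1, TRIM46 rose by 0.95 ± 0.17 (adjusted p = 0.000167) and THBS3 by 0.61 ± 0.14 (adjusted p = 0.00151) on drug against off drug, where MUC1 rose by 2.12.

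**Figure D4:**
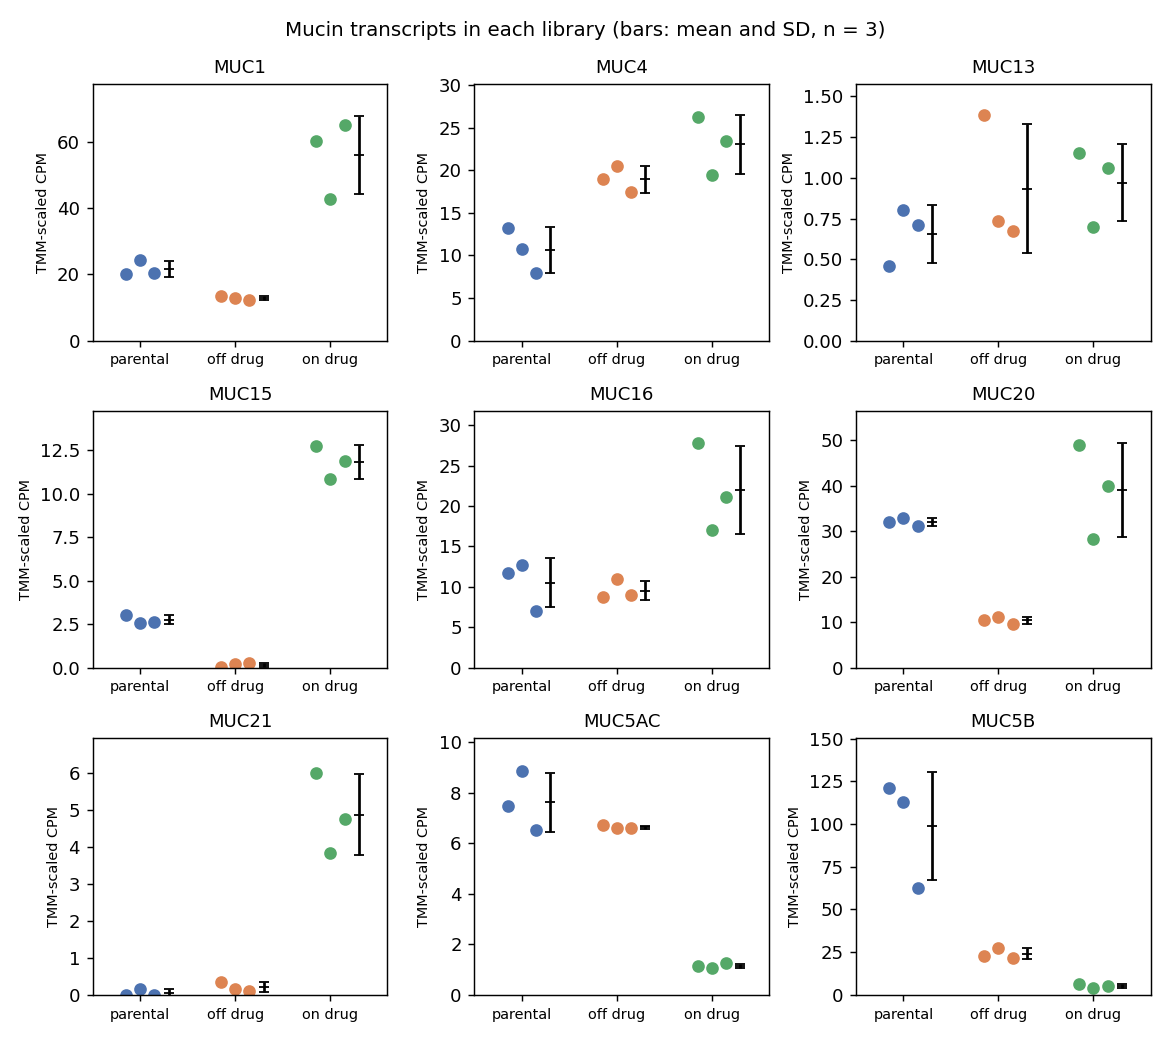
TMM-scaled CPM (vertical axis, from 0, own scale per gene) of the 9 mucin genes in each library, with mean and SD of 3 libraries per state. MUC5AC and MUC5B fall on drug to 1.08 to 1.24 and 3.88 to 6.30 CPM, while MUC15 and MUC21 reach 10.8 to 12.7 and 3.85 to 6.02 CPM.

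Promoter sequences of 4 of the 9 genes (MUC1, MUC4, MUC13 and MUC16) were matched in RefSeq on GRCh38.p14. MUC1, MUC4 and MUC16 were all higher on drug than in parental cells. Windows of MUC1 and MUC4 only are printed, as the 250 bases before the start, 5′ to 3′ along the gene. The motifs were searched on both strands and are in capitals where they match: the GC box GGGCGG, the E-box CACCTG, the TATA box TATAAA, the AP-1 site TGANTCA and the STAT site TTCNNNGAA.
MUC1 promoter, minus strand, chr1:155192916-155193165: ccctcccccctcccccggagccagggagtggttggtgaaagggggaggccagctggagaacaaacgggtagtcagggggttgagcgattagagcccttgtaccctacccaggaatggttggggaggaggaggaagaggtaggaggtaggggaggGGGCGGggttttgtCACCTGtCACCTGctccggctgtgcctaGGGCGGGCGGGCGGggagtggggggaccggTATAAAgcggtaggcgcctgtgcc
MUC4 promoter, minus strand, chr3:195811930-195812179: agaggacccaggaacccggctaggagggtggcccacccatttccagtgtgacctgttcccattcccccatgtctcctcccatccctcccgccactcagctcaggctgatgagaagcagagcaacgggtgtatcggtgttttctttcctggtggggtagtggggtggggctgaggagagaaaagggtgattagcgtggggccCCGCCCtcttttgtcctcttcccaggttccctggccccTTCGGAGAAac
MUC1 held 4 GC boxes, of which 3 adjoin and share letters, 2 copies of CACCTG and 1 TATAAA. MUC4 held 1 GC box, on the opposite strand, and 1 STAT match at its 3′ end. A further MUC1 window (chr1:155192910-155193159), not printed, held the same numbers of matches. Of the other unprinted windows, that of MUC13 held 1 AP-1 match. The MUC16 window at chr19:9010410-9010659 held 1 AP-1 match and 1 CACCTG, and the one at chr19:9065752-9066001 held 1 GC box. Among 35116 RefSeq promoter windows of this length, 42.6% held GGGCGG, 17.5% CACCTG, 10.7% TATAAA, 6.57% TGANTCA and 6.57% TTCNNNGAA. These are matches of letters only, since no binding at promoters was measured.

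Levels of different mucins can be compared only per transcript length, as TPM. In parental cells MUC20 stood highest at 15.0 ± 1.01 TPM, followed by MUC1 at 12.2 ± 1.67 and MUC5B at 6.25 ± 1.78 (SD, n = 3), with no overlap between the 3. MUC16 (1.59 ± 0.151 TPM) and MUC4 (1.48 ± 0.0298) overlapped, MUC15 was next at 1.16 ± 0.145, and MUC5AC (0.360 ± 0.0677) and MUC13 (0.263 ± 0.0744) overlapped. MUC21 was last at 0.0153 ± 0.0265 TPM.

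Off drug the order was headed by MUC1 (10.5 ± 3.38 TPM), MUC20 (4.99 ± 0.522) and MUC4 (3.65 ± 0.710), again without overlap. MUC5B (1.51 ± 0.381) and MUC16 (1.24 ± 0.184) overlapped, as did MUC13 (0.397 ± 0.175) and MUC5AC (0.339 ± 0.0218). MUC21 (0.0850 ± 0.0674) and MUC15 (0.0765 ± 0.0501) overlapped at the bottom.

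On drug MUC1 led with 45.8 ± 11.1 TPM, clear of MUC20 at 22.1 ± 6.81. MUC15 (5.85 ± 0.741) overlapped MUC16 (4.55 ± 1.22), which overlapped MUC4 (4.28 ± 1.05), and MUC21 reached 2.12 ± 0.505 TPM. MUC5B (0.580 ± 0.537) and MUC13 (0.482 ± 0.136) overlapped, and MUC5AC was lowest at 0.0714 ± 0.00689 TPM. MUC1 and MUC20 thus kept the first and second places from off drug to on drug, while MUC15 had the lowest mean off drug and the third highest on drug.

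Summed over the 9 genes, mucin TPM was 38.3 ± 3.06 in parental, 22.8 ± 4.45 off drug and 85.8 ± 21.2 on drug (SD, n = 3). The libraries did not overlap between states, with 35.9 to 41.8 TPM in parental, 18.0 to 26.8 off drug and 62.1 to 103 on drug. These TPM carry no TMM scaling, whose factors were 1.113 to 1.124 on drug and 0.917 to 0.972 in the other libraries. MUC20, with 45.5% of its 150-base windows shared with other genes, made up 19.8 to 43% of the sum. The part of either in the sums was not tested. The MUC1 share of the sum was 27.7 to 35.4% in parental cells, 39.5 to 51.7% off drug and 50.7 to 56.5% on drug. MUC5B went from 12.8 to 19.4% in parental to 4.89 to 10.6% off drug and 0.344 to 1.16% on drug.

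**Figure D5:**
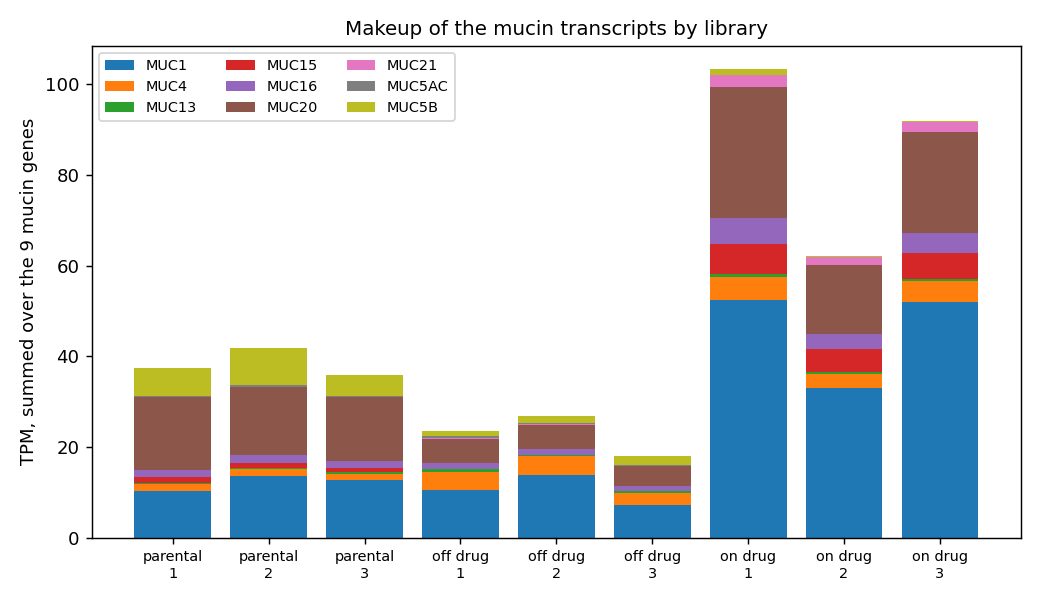
TPM summed over the 9 mucin genes (vertical axis) in each of the 9 libraries, with each gene in its own colour. The on-drug bars are the tallest (62.1 to 103 TPM) and consist mostly of MUC1 and MUC20, and the MUC5B layer at the top of the parental bars is thin on drug.

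Of 15 other mucin and mucin-like genes, 5 passed the low-count filter and 10 did not, among them MUC2 and MUC6, gel-forming mucins that lie in the same chromosome 11 cluster as MUC5AC. MUC7 had 0 counts in all 9 libraries. Of the 5 tested, 2 were higher and 3 lower off drug (median −0.48), 2 and 2 on drug against off drug (0.44) and 2 and 1 on drug against parental (−0.05). Of all tested genes 28.4% were higher and 26.6% lower off drug. These shares were 31.4 and 31.2% on drug against off drug, and 33.4 and 32.9% on drug against parental. The all-gene medians were 7e-04, 0.02 and 0.02. OVGP1, an oviduct glycoprotein gene, and MUC17, a membrane mucin gene, were both lower off drug (−1.51 ± 0.30, adjusted p = 0.000493, and −1.11 ± 0.35, adjusted p = 0.0132). MCAM, an adhesion molecule, rose at each step, from 0.104 ± 0.0905 CPM in parental to 2.58 ± 0.00665 off drug and 10.2 ± 0.401 on drug. PODXL, the sialomucin podocalyxin, rose off drug by 4.10 ± 0.14 (adjusted p = 6.78e-12) and fell on drug by 1.30 from that level (adjusted p = 4.62e-08). CD164, the sialomucin endolyn, changed by −0.48 off drug and 0.44 on drug against off drug, both called.

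Genes that build the O-linked sugars were mostly lower in resistant than in parental cells. Of 24 listed enzymes 23 were tested: 4 were higher and 14 lower off drug (median −0.38, all genes 7e-04), 11 higher and 10 lower on drug against off drug (−0.19, all genes 0.02), and 5 higher and 15 lower on drug against parental (−0.86, all genes 0.02). The shares of all tested genes that were higher and lower were 28.4 and 26.6%, 31.4 and 31.2%, and 33.4 and 32.9% in these comparisons. GCNT3, which makes branched core structures on mucins, fell from 44.5 ± 1.55 CPM to 5.56 ± 1.65 off drug and 4.46 ± 0.373 on drug. GALNT6, one of the enzymes that add the first sugar, went from 101 ± 4.52 to 43.9 ± 4.34 and 11.8 ± 1.88 CPM. B3GNT6, the core 3 synthase, fell off drug by 3.19 (adjusted p = 1.12e-09).

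The list holds 5 sialyltransferases. On drug against off drug 3 of them were higher and 2 lower, beside 31.4 and 31.2% of all tested genes. On drug against parental 1 was higher and 4 lower, beside 33.4 and 32.9% of all tested genes. ST6GALNAC1, which adds sialic acid to the first sugar, was measured at 14.9 ± 0.895 CPM in parental, 0.729 ± 0.433 off drug and 9.03 ± 1.92 on drug. ST3GAL1, which caps the core 1 chain, was measured at 5.97 ± 1.16 in parental, 31.4 ± 2.75 off drug and 1.13 ± 0.301 on drug. The change on drug against off drug was 3.66 ± 0.26 for ST6GALNAC1 (adjusted p = 4.47e-09) and −4.79 ± 0.17 for ST3GAL1 (adjusted p = 2.05e-12). On drug against parental both were lower (−0.72 ± 0.18, adjusted p = 0.00199, and −2.39 ± 0.19, adjusted p = 1.61e-08). Smaller changes on drug against off drug were called for ST3GAL4 (0.31 ± 0.09), ST6GALNAC2 (0.60 ± 0.13) and ST6GALNAC4 (−0.98 ± 0.09). FUT3, the Lewis fucosyltransferase, fell on drug by 1.78 from its off-drug level (adjusted p = 2.63e-08).

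In a list of 22 mucous cell regulators and mucus components, 11 genes were tested, with 4 higher and 3 lower off drug (median −0.06), 4 and 4 on drug against off drug (0.42) and 3 and 5 on drug against parental (−0.38). The all-gene medians were 7e-04, 0.02 and 0.02, and the counts off drug are near the shares of all genes, 28.4% higher and 26.6% lower. Those shares were 31.4 and 31.2% on drug against off drug, and 33.4 and 32.9% on drug against parental. SPDEF, a transcription factor of goblet cells, was measured at 13.7 ± 1.02 CPM in parental, 17.3 ± 0.641 off drug and 1.44 ± 0.250 on drug, and fell on drug by 3.58 from its off-drug level (adjusted p = 2.61e-12). FOXA2 also fell (−1.94 ± 0.11, adjusted p = 5.34e-10), and FOXA1, a related forkhead factor, rose (1.99 ± 0.10, adjusted p = 4.97e-11). AGR2, a disulfide isomerase needed for mucin folding, went from 512 ± 19.1 CPM to 156 ± 5.99 off drug and 289 ± 29.9 on drug. Its relative AGR3 fell off drug to 0.0512 ± 0.0268 CPM, below the floor of 3 counts, and was at 3.55 ± 0.810 CPM on drug.

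Among 17 genes of mucin granule release and surface partners, 16 were tested: 2 were higher and 9 lower off drug (median −0.29), 6 and 5 on drug against off drug (0.02), and 4 and 7 on drug against parental (−0.15). The all-gene medians were 7e-04, 0.02 and 0.02, and the counts on drug against off drug are near the shares of all genes, 31.4% higher and 31.2% lower. Those shares were 28.4 and 26.6% off drug against parental, and 33.4 and 32.9% on drug against parental. VAMP8, a SNARE of mucin granules, fell off drug by 1.48 (adjusted p = 9.78e-09). EZR, which links surface proteins to actin, rose off drug by 1.35 ± 0.09 (adjusted p = 8.76e-09) and fell on drug by 1.13 (adjusted p = 3.18e-08). UNC13B, a granule priming factor, rose on drug against off drug by 0.94 ± 0.10 (adjusted p = 7.89e-07).

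Markers of other cell types were read beside these results. The 6 goblet markers (MUC5AC, SPDEF, TFF3, AGR2, FCGBP and CLCA1) summed to 519 to 555 CPM in parental, 174 to 185 off drug and 263 to 323 on drug, almost all of it AGR2, and CLCA1 was at 0 in parental and off-drug libraries. All 5 fibroblast markers were tested and 4 were higher on drug than off drug, beside 31.4% of all tested genes. Of these 4, COL3A1 and COL1A2 passed the low-count filter only through the on-drug libraries, where they are high. That count is therefore descriptive only. COL1A2 was at 0.517 ± 0.118 CPM on drug and at most 0.0819 CPM in any other library. The 5 summed to 123 to 156 CPM on drug, against 15.4 to 16.7 off drug and 27.0 to 31.1 in parental. LUM (89.3 ± 18.9 CPM) and COL1A1 (43.9 ± 3.05 CPM) made up most of the on-drug sum, and COL3A1, at 0 in parental and off-drug libraries, was at 4.68 ± 0.417 CPM. The 4 club cell markers summed to 14.5 to 19.1 CPM on drug, almost all of it CYP2F1, with SCGB3A1 at 0, and to at most 0.0642 CPM in the other states.

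Markers of the remaining types also moved between states. The 5 alveolar type 2 markers summed to 5.99 to 6.93 CPM in parental, 2.18 to 2.82 off drug and 6.03 to 8.28 on drug, with SFTPB at 0 in all 3 states. Both tested members, LAMP3 and ABCA3, were called higher on drug than off drug (1.46 ± 0.21 and 1.72 ± 0.23), beside 31.4% of all tested genes. Against parental, LAMP3 was higher on drug (0.96 ± 0.20, adjusted p = 0.000474) and ABCA3 lower (−0.51 ± 0.19, adjusted p = 0.0282). The 4 ciliated cell markers summed to 35.5 to 39.2, 10.5 to 12.4 and 8.77 to 11.2 CPM, and the 3 basal and squamous markers to 39.9 to 51.0, 3.56 to 6.51 and 15.2 to 16.0 CPM, in that order of states. TP63 made up most of the basal and squamous sum and was called higher on drug than off drug (1.86 ± 0.17, adjusted p = 7.56e-08). On drug it was lower than in parental cells (−1.63 ± 0.14, adjusted p = 4.38e-08). KRT14, the other basal marker tested, was not called in any comparison. The 3 endothelial markers summed to at most 6.20 CPM. The 4 leukocyte markers summed to 58.1 to 65.7 CPM in parental, 72.8 to 80.5 off drug and 7.64 to 8.67 on drug, mostly CD68. PTPRC was at most 0.183 CPM in any library. The part of any of these in the mucin results was not tested.

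The genes most like each mucin across the 9 libraries were named by Pearson correlation of log2 CPM. These values only describe a shared pattern over 3 states, and the libraries share their states and depths. MUC1 was followed by SLC4A2 (r = 0.997), SMAD1 and ZFP36L2, MUC15 by CLEC7A (r = 0.993), LDB1 and EPHX2, and MUC20 by FHIP2B (r = 0.995), MEIS2 and SORT1. MUC16 was followed by XPR1 (r = 0.987) and BLTP2, MUC4 by ERCC6 (r = 0.989), IDE and ZNF157, and MUC21 by SAMHD1 (r = 0.991), DDX19A and ALPG. For the gel-forming genes they were PADI2 (r = 0.998), STEAP2 and ZNF185 for MUC5AC and EPAS1 (r = 0.997), AFAP1 and SYTL5 for MUC5B. MUC13 had the least alike leading gene, TAB1 (r = 0.929).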

How the data were processed

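Poly(A) RNA from 9 NCI-H358 libraries, 3 per state, was read in 150-base pairs. Salmon 0.14.1, FastQC 0.12.1, bcl2fastq 2.17 and the build GRCh38.p13 are named in the submitters' processing notes. No source used here gives the annotation release, strand setting or transcript-to-gene step. The authors deposited 1 table of estimated counts per gene, unscaled, and 1 of TPM values, which correct for length and depth.

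Plain counts had been assumed in the design, so estimated counts were rounded. All 9 libraries were fitted in edgeR 4.0.16 (R 4.3.3) with a mean per state, TMM scaling and filterByExpr (minimum count 10, minimum total 15). The quasi-likelihood fit had 6 residual degrees of freedom and a common biological coefficient of variation of 0.0946. Adjusted p-values are Benjamini-Hochberg over all 17307 genes.

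The members and gene lists were chosen with earlier results of these data known. Named by rule were all members, up to 4 called genes per list and comparison (average log2 CPM no lower than 1), and the 3 most correlated protein-coding genes per member, of which 1 is not reported here. Markers, neighbouring genes and genes that share sequence with a member are named beyond this rule. The length and GC deviations of libraries were also computed after seeing the data.

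Steps were tested on simulated counts. Of genes changed 1.5-, 2- and 4-fold, 59.7, 73.1 and 95.4% were recovered off drug against parental (16906 genes), 70.3, 76.1 and 90.5% on drug against off drug (16853 genes), and 53.8, 81.5 and 96.9% on drug against parental (16854 genes). False calls made up 6.21, 7.83 and 3.82% of calls, in that order. The simulation changed 63 to 67 tested genes per fold, up or down at random, around a mean shared by all states. In the data 9515, 10834 and 11467 of 17307 genes were called. These rates therefore do not cover scaling where so many genes change.

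Alternatives were other scaling factors and filters, DESeq2 1.42.0, limma 3.58.1 on counts and on TPM (genes of mean TPM of at least 1), a replicate block, fits of 2 groups, MUC20 counts summed with MUC20P1, each library left out and, added later, a length offset. Same-numbered libraries deviated together (r over 0.1) in 1 of 9 pairs, with a highest r of 0.135. Whether they were handled together is not stated in the labels, and these correlations cannot decide it. The main fit did not pair them. No 2 libraries of a state agreed within sampling noise (lowest chi-square per degree of freedom 5.114). Positions and transcripts are from GENCODE release 29, and promoters from RefSeq.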

Additional observations from a re-analysis of the deposited data

How the results depend on the processing

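Of 551 mucin gene values under alternatives, 527 kept their direction and their side of the threshold, 17 passed it only under the alternative, 3 lost it and 4 changed sign. The 3 losses were all MUC1 off drug against parental: −0.24 on log2(TPM + 1), −0.26 on log2(TPM + 0.1) and −0.37 with the length offset. The sign changes were in values that were not called: with each library left out, MUC16 off drug against parental ranged from −0.35 to 0.0201 (the latter without parental replicate 2), and MUC13 on drug against off drug from −0.13 to 0.46 (below 0 without off-drug replicate 2, off-drug replicate 3 or on-drug replicate 1). The number of mucin genes higher off drug than in parental cells was 1, and 2 without the filter and with DESeq2, and ranged from 1 to 2 with each library left out. The number lower on drug, against off drug and against parental cells, was 2, and 1 on log2(TPM + 1) and on log2(TPM + 0.1), where MUC5AC was under the TPM minimum and was not tested. MUC21 passed the threshold off drug only in 4 alternatives, given above. With a replicate block, 5 mucin genes were higher and 2 lower on drug than off drug, MUC4 changed by 0.28 there, and no call of a mucin gene changed. MUC13, MUC21 and off-drug MUC15 rest on few counts, which limits their precision.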
